A study of Mus musculus with 8 samples.

Results

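Apelin and the apelin receptor are a peptide ligand and its G protein-coupled receptor, encoded by Apln and Aplnr. Both genes were taken by name from a deposited table of 30445 genes, and both (2 of 2) were found and measured in every library. They were chosen by their difference in read counts between the groups of this series, which was already known, so their group difference is given as a description, with no test. The data are 8 poly(A) RNA-seq libraries of mouse heart. All 8 libraries are of hearts from C57 mice whose aortic arch had been narrowed by surgery (transverse aortic constriction). Such narrowing makes the left ventricle pump against raised pressure, and the hearts were taken 8 weeks later. Of the 8 libraries, 4 are labelled Mertk knockdown and 4 wildtype, and no unoperated heart was analysed here. The study's title concerns the macrophage receptor MERTK and the type I interferon response. The labels do not say how or in which cells Mertk was lowered, nor whether the replicates of a group were separate mice, so the spread between libraries may be partly technical.

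Apelin is made as a longer precursor and cut to short peptides, and its receptor couples to inhibitory G proteins and recruits beta-arrestins. In blood vessels apelin is best known from sprouting endothelial cells: the ligand is a marker of tip cells, while the receptor lies on endothelial cells of growing veins and capillaries. Apelin transcription is raised by hypoxia through hypoxia-inducible factors. In the heart the pair is known for raising contractile force and for widening vessels through endothelial nitric oxide, and Apln-deficient mice tolerate pressure overload poorly.

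Mertk, the gene named in the labels, showed no reduction. In the libraries labelled Mertk knockdown it stood at 11.86 ± 0.951 CPM, and in wildtype at 11.05 ± 0.87 CPM (read counts scaled to a common library total, SD, n = 4 each), with overlapping values. Its log2 fold change was 0.10 (SE 0.11), and edgeR gave an adjusted p of 0.7663. The labels are therefore used as names only. Total counts ran from 63378755 to 68762911 in the labelled knockdown libraries and from 59287621 to 71571173 in wildtype, so that 3 counts, taken as the detection floor, correspond to 0.0407 to 0.052 CPM. Some libraries carried transcripts of other tissues. The summed level of 10 hepatocyte genes was 154.0 to 222.3 CPM in the 4 labelled knockdown libraries and 216.6 CPM in wildtype replicate 1, against 9.573 to 17.12 CPM in the other 3 wildtype libraries, where Alb, Fga, Fgb and Serpina1a were each at 0 in at least 1 library. The summed level of 6 atrial genes was 184.2 to 1985 CPM in the labelled knockdown libraries and 313.1 to 2345 CPM in wildtype.

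Apln (ENSMUSG00000037010) lies on the minus strand of chromosome X, from 48025146 to 48034853 on build mm10. Aplnr (ENSMUSG00000044338) lies on the plus strand of chromosome 2, from 85136225 to 85139923. Both are annotated as protein-coding, and 0 other genes of the table overlap either of them. The RefSeq promoter table for GRCm38.p6 held 1 of the 2 members, Apln. The 250 bases before the Apln start (chrX:48034854-48035103, minus strand) are printed because the ligand gene is known to respond to hypoxia and because ETS factors act at many endothelial promoters. Capitals mark the GGAA core bound by ETS factors, which reads TTCC on this strand, and the GC box GGGCGG.

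Apln: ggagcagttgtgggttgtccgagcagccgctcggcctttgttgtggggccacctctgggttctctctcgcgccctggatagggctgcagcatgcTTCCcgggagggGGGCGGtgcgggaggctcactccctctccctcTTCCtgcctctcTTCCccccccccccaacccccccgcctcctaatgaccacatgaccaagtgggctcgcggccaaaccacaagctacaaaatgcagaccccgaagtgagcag

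The 3 matches to GGAA begin 156, 112 and 100 bases before the start, and the single match to GGGCGG begins 144 bases before it; these matches do not overlap each other. Searched on both strands, GGAA is present in 93.4% and GGGCGG in 32.7% of the 32851 promoters of the table, each taken over the same 250 bases. The sequence holds 0 matches to ACGTG or GCGTG, the hypoxia response cores, which are present in 16.6% and 28.2% of promoters. It also holds 0 matches to CACCC, a core of KLF factor sites (52.0% of promoters), to TATAA, of the TATA box (22.8%), and to GTAAACA, a forkhead motif (3.17%). These letters are not in this window, and more than that is not read from it. Its GC content was 65.2%, against a median of 52.4% over all promoters.

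The ligand was higher in every labelled knockdown library than in any wildtype library. Apln had 717, 684, 880 and 1190 counts in labelled knockdown replicates 1 to 4, against 107, 229, 124 and 363 counts in wildtype replicates 1 to 4. Scaled to library size, it stood at 10.81, 10.33, 13.79 and 17.46 CPM in labelled knockdown, against 1.687, 3.455, 2.151 and 4.929 CPM in wildtype. The groups did not overlap: the lowest labelled knockdown library was 2.1 times the highest wildtype library. Means were 13.1 ± 3.29 CPM in labelled knockdown and 3.06 ± 1.46 CPM in wildtype (SD, n = 4 each), a log2 fold change (log2FC, labelled knockdown over wildtype) of 2.095 (SE 0.33) or 4.27-fold. Spread was wider in wildtype, with a coefficient of variation of 25.1% in labelled knockdown and 47.6% in wildtype. The lowest wildtype count, 107 in replicate 1, has an exact Poisson 95% interval of 87.7 to 129, which covers counting error only.

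The receptor showed the same separation with the wider spread in the other group. Aplnr had 1298, 1440, 3619 and 2283 counts in labelled knockdown replicates 1 to 4, against 370, 411, 269 and 647 counts in wildtype. Its scaled level was 19.57, 21.75, 56.71 and 33.5 CPM in labelled knockdown, against 5.835, 6.201, 4.667 and 8.785 CPM in wildtype. Labelled knockdown replicate 3 stood highest by a clear margin, and here too the groups did not overlap, with the lowest labelled knockdown library at 2.23 times the highest wildtype library. Means were 32.88 ± 17 CPM in labelled knockdown and 6.37 ± 1.74 CPM in wildtype (SD, n = 4 each), a log2FC of 2.365 (SE 0.365) or 5.15-fold. The coefficient of variation was 51.8% in labelled knockdown and 27.3% in wildtype.

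**Figure D1:**
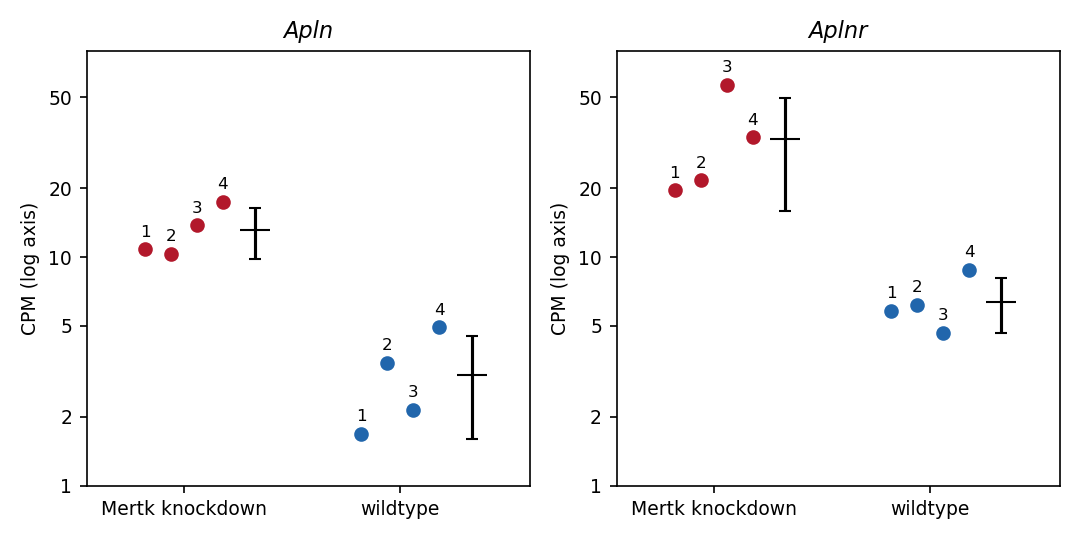
Level of Apln (left) and Aplnr (right) in each library, in CPM on a log axis, with the replicate number above each point and the mean ± SD of the 4 libraries beside each group. For both genes all 4 labelled knockdown libraries lie above all 4 wildtype libraries, by at least 2.1 times for Apln and 2.23 times for Aplnr.

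Across the 17787 genes tested with edgeR's quasi-likelihood test, 115 (0.647%) passed an adjusted p of 0.05, 49 (0.275%) higher and 66 (0.371%) lower in labelled knockdown. Both members were among the 49, which is part of why they were chosen and supports nothing further. That place was lost in 6 of 8 fits with 1 library left out for Apln and in 5 of 8 for Aplnr. Separation of the groups was less rare: 743 genes (4.18%) were higher in all 4 labelled knockdown libraries than in any wildtype library, 693 (3.9%) were lower in this way, and 1436 (8.07%) were separated in either direction. By looser and other rules, 2211 genes (12.4%) had an unadjusted edgeR p under 0.05, and DESeq2 called 604 of 16206 (3.73%), 268 (1.65%) higher and 336 (2.07%) lower. On log2 FPKM, limma called 70 (0.394%) with a pseudocount of 1 and 69 (0.388%) with 0.1. By size of log2FC, Aplnr ranked 5th and Apln 9th of the 47 higher genes averaging 1 CPM or more. The median log2FC over all tested genes was -0.000709.

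By length-scaled level, the receptor stood above the ligand in all 8 libraries. Apln stood at 3.039, 2.976, 4.086 and 5.163 FPKM (deposited values, scaled for length and library depth) in labelled knockdown, against 0.479, 1.022, 0.5721 and 1.469 FPKM in wildtype. Aplnr stood at 4.687, 5.34, 14.31 and 8.431 FPKM in labelled knockdown, against 1.411, 1.561, 1.061 and 2.23 FPKM in wildtype. The ratio of Aplnr to Apln FPKM was 1.54, 1.79, 3.5 and 1.63 in labelled knockdown, against 2.95, 1.53, 1.85 and 1.52 in wildtype. It averaged 2.12 ± 0.929 in labelled knockdown and 1.96 ± 0.674 in wildtype (SD, n = 4 each), so the groups overlapped in the ratio while they did not in either level. In each group a single library held the high ratio, labelled knockdown replicate 3, where Aplnr was highest, and wildtype replicate 1, where Apln was lowest.

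**Figure D2:**
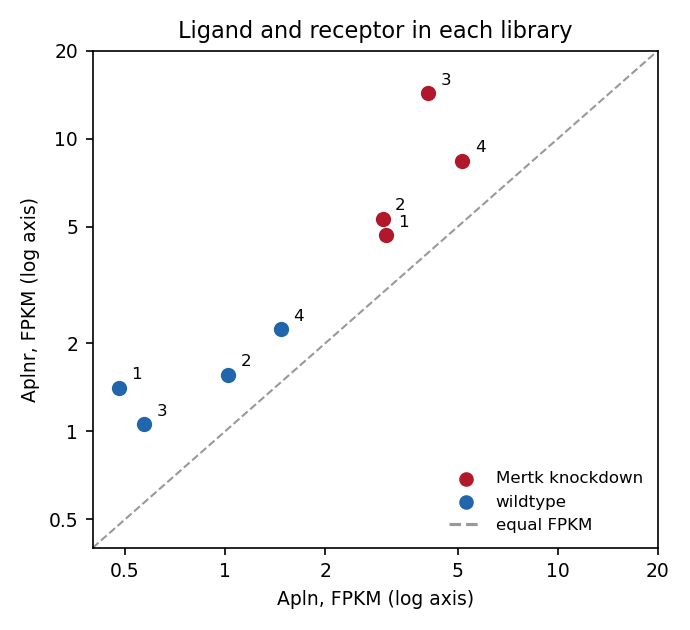
Aplnr against Apln in each library, both in FPKM on log axes, with the replicate number beside each point and a dashed line at equal levels. All 8 points lie above the line, and the 2 groups occupy separate ranges on both axes.

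Within groups the pair shared part of its order of libraries. Over the 8 libraries, log2 CPM of Apln and Aplnr had a Pearson r of 0.936 and a Spearman rho of 0.929, and an r of 0.962 without the 2 libraries farthest from the median of Aplnr. This r contains the group difference for which the genes were chosen. After each group's mean was subtracted, r was 0.593 over the same 8 libraries, 4 in each group. Labelled knockdown replicates 3 and 4 were above replicates 1 and 2 for both genes, and wildtype replicates 4 and 2 were above replicates 1 and 3 for both. Among 13551 genes averaging 1 CPM or more, Aplnr ranked 46th in pooled r with Apln and 2075th after group means were removed.

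Genes that mark endothelial cells, where both members are known to be made, were present in every library at similar summed levels. Of the 22 endothelial identity genes, 22 were measured and tested, and their summed level was 1409 to 1681 CPM in labelled knockdown and 1340 to 1502 CPM in wildtype. Their mean log2 CPM was 5.56 ± 0.0903 in labelled knockdown and 5.50 ± 0.0767 in wildtype (SD, n = 4 each), a difference of 0.0683 on the log2 scale. Set against that mean, Apln lay at -2.11, -2.3, -1.8 and -1.32 log2 units in labelled knockdown, against -4.79, -3.73, -4.27 and -3.18 in wildtype. Relative to the same mean, Aplnr lay at -1.26, -1.22, 0.239 and -0.384 log2 units in labelled knockdown, against -3.02, -2.9, -3.16 and -2.35 in wildtype. The group difference in this relative level was 2.11 for Apln and 2.2 for Aplnr, as differences of mean log2 CPM. Setting the genes against the endothelial mean takes the same 0.0683 from the difference of each. The edgeR log2FCs of 2.095 and 2.365 come from a fit to counts, so they are not the unscaled counterparts of these values. In bulk heart RNA, fewer cells of a type and less RNA per cell cannot be told apart.

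No identity gene passed the threshold in edgeR (0 of 22), 8 of them (36.4%) had an unadjusted p under 0.05, beside 12.4% of all tested genes, and 13 of 22 log2FCs were above 0 with a median of 0.0934. DESeq2 called 3 of them, Kdr, Cldn5 and Cdh5, all higher, beside 1.65% of all genes called higher by DESeq2, while limma on log2 FPKM called 0. Kdr, the main VEGF receptor, had 150, 149.2, 223.7 and 161.2 CPM in labelled knockdown, against 118.5, 105.8, 102 and 100.7 CPM in wildtype (log2FC 0.68, SE 0.14, edgeR adjusted p = 0.07421). Cldn5, a tight junction protein of endothelium, had a log2FC of 0.84 (SE 0.19, edgeR adjusted p = 0.09422). Kdr, Cldn5, Cdh5 (VE-cadherin) and Emcn (endomucin), 4 of 22 (18.2%), were higher in every labelled knockdown library than in any wildtype library, beside 4.18% of all tested genes. In the other direction, 0 of 22 were lower without overlap, beside 3.9%. Of the 8 genes under the unadjusted threshold, S1pr1 (log2FC -0.48, SE 0.14) and Sox17 (-0.68, SE 0.27) were lower and the others higher. The log2FCs of the list ran from -0.682 to 0.843, all smaller than those of Apln and Aplnr.

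The correlation of the pair with endothelial genes differed from gene to gene. With the mean of the 22 genes, Apln had r = 0.275 (rho 0.119) and Aplnr r = 0.384 (rho 0.429) over the 8 libraries, and without the 2 libraries farthest from the median of that mean r was -0.295 for Apln and -0.00138 for Aplnr. Gene by gene, r with Aplnr ran from -0.881 for S1pr1, a sphingosine-1-phosphate receptor, to 0.946 for Kdr, with a median of 0.216 and 13 of 22 above 0. Kdr, Cdh5, Cldn5, Emcn and Egfl7 (5 of 22) had r above 0.8 with Aplnr, beside 2.86% of all other tested genes. With Apln, r ran from -0.813 for S1pr1 to 0.831 for Erg, an endothelial transcription factor, with a median of 0.147, 15 of 22 above 0 and 3 above 0.8 (3.05% of all other tested genes).

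Pooled r contains the group difference, so it was also computed without it. After group means were subtracted, the median r of the 22 genes was -0.107 with Apln and 0.079 with Aplnr. Genes with a high r with Aplnr were then Egfl7 (0.908) and Kdr (0.738), while Eng (-0.857), a co-receptor for BMPs, and Flt1 (-0.82), a VEGF receptor that can act as a decoy, were strongly negative. Egfl7, Kdr and Aplnr were each highest in labelled knockdown replicate 3, with Kdr at 223.7 CPM there. In wildtype, replicate 4 had the highest Aplnr (8.785 CPM) and the lowest Kdr (100.7 CPM). With Apln the highest was Icam2 (0.801), and Kdr stood at -0.0671. With Aplnr, 1 of the 22 was above 0.8 and 2 were below -0.8, beside 2.82% and 4.54% of all other tested genes. With Apln, 1 was above 0.8 and 0 were below -0.8, beside 3.69% and 4.22%. All of these values are descriptions over 8 libraries.

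**Figure D3:**
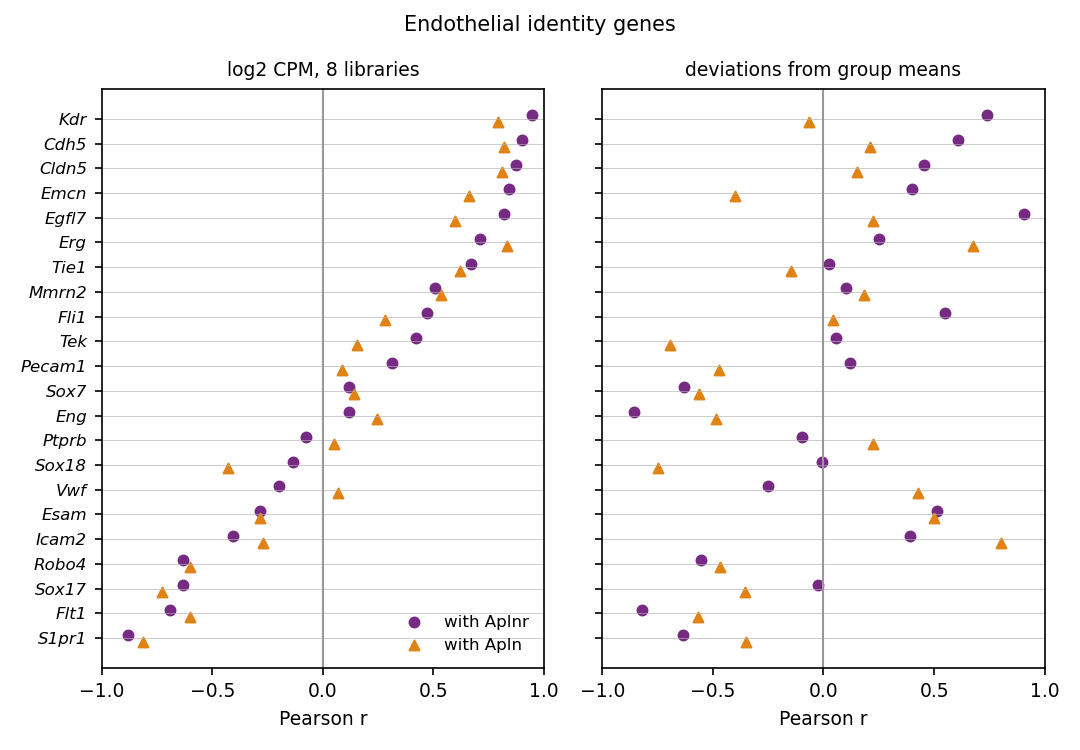
Pearson r of each of the 22 endothelial identity genes with Aplnr (circles) and with Apln (triangles), from log2 CPM over the 8 libraries (left) and from deviations from group means (right). On the left r runs evenly from below -0.8 to above 0.8. On the right Kdr has an r of 0.738 with Aplnr and -0.0671 with Apln. Labelled knockdown replicate 3 is the highest library for both Kdr and Aplnr.

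Genes of endothelial subtypes gave no call in edgeR. Among 18 genes of tip cells and sprouting, 15 log2FCs were above 0, beside 49.9% of all tested genes, with a median of 0.308. Of the 18, 4 (22.2%) had an unadjusted p under 0.05, beside 12.4% of all tested genes, and 0 passed in edgeR or limma. DESeq2 called Fscn1 higher and Igfbp3 lower, beside 1.65% higher and 2.07% lower among all its genes. Fscn1, an actin-bundling protein of migrating cells, had a log2FC of 0.99 (SE 0.36, edgeR adjusted p = 0.3063), and Igfbp3, an IGF-binding protein, had -0.83 (SE 0.27, edgeR adjusted p = 0.244). The summed level of this list overlapped between the groups, at 954.1 to 1472 CPM in labelled knockdown and 665 to 1405 CPM in wildtype. Of 8 capillary genes 1 log2FC was above 0 and the median was -0.304. Rgcc, a cell cycle regulator enriched in capillary endothelium, had -0.91 (SE 0.18, edgeR adjusted p = 0.07201) and was the capillary gene that DESeq2 called. It was the 1 capillary gene of 8 (12.5%) that was lower without overlap of the groups, beside 3.9% of all tested genes. Gpihbp1, which holds lipoprotein lipase on capillaries, had -0.35 (SE 0.11, edgeR adjusted p = 0.23).

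Arterial genes were split evenly, with 5 of 10 above 0 and a median of 0.135. Sema3g, an arterial semaphorin, had a log2FC of -0.53 (SE 0.13, edgeR adjusted p = 0.1238) and was called lower by DESeq2, and Jag1, a Notch ligand, had 0.31 (SE 0.10, edgeR adjusted p = 0.2482). Of 10 venous and endocardial genes 5 were above 0 with a median of -0.0109. Tmem100, a target of BMP signalling in endothelium, had -0.70 (SE 0.22, edgeR adjusted p = 0.2091) and was called lower by DESeq2, and Cytl1, a secreted cytokine-like protein, had -0.71 (SE 0.40, edgeR adjusted p = 0.5272), with the sign of Cytl1 turning when only libraries with hepatocyte transcripts were compared. At an unadjusted p under 0.05 there were 2 capillary, 3 arterial and 1 venous or endocardial gene, and limma called 0 in each list.

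The genes that cut and clear the apelin peptide did not pass the threshold. Furin, a protease that cuts the precursor, stood at 77.0 CPM in labelled knockdown and 91.3 CPM in wildtype (log2FC -0.25, SE 0.13, edgeR adjusted p = 0.5047). Mme, the peptidase neprilysin, had 0.66 (SE 0.34, edgeR adjusted p = 0.4844). Of the 3 tested genes of this list 1 (33.3%) had an unadjusted p under 0.05, beside 12.4% of all tested genes. DESeq2 and limma called 0. Klkb1 was too low to be tested, and the second ligand of the receptor, Apela, was not analysed here.

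Downstream of the receptor, 24 of 24 listed G protein, arrestin, kinase and transcription factor genes were tested. At an unadjusted p under 0.05 were 3 (12.5%), beside 12.4% of all tested genes, and 0 of the 24 passed in edgeR or limma. Their log2FCs were small, from -0.589 to 0.265 with a median of 0.0348 and 14 above 0. Grk5, a kinase that phosphorylates active receptors, had the lowest of them, -0.59 (SE 0.17, edgeR adjusted p = 0.1949), and was called lower by DESeq2. Arrb2, a beta-arrestin, had -0.34 (SE 0.11, edgeR adjusted p = 0.212). Nos3, the endothelial nitric oxide synthase, averaged 34.0 CPM in labelled knockdown and 31.6 CPM in wildtype.

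The deposited table also assigns genes to the KEGG apelin signalling pathway. Besides the 2 members it names 130 genes, 122 of them tested, and 19 of the 130 are also in the pathway and endothelial lists. In edgeR 0 of the 122 were called higher and 1 lower, beside 0.275% and 0.371% of all tested genes. At an unadjusted p under 0.05 were 15 (12.3%), near the 12.4% of all tested genes, and the median log2FC was 0.0613. DESeq2 called 1 higher and 2 lower, beside 1.65% and 2.07% of all its genes, and limma called 0.

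Hypoxia-responsive genes, 26 of 26 tested, lay on both sides of 0. In edgeR 0 were called higher and 1 lower, beside 0.275% and 0.371% of all tested genes, and limma called 0. Of the 26 log2FCs 12 were above 0, and the median was -0.0203. Without overlap of the groups, 2 (7.69%) were higher and 6 (23.1%) lower in labelled knockdown, beside 4.18% higher and 3.9% lower among all tested genes. Vegfa, named here after its value was seen, averaged 294 CPM in labelled knockdown and 205 CPM in wildtype (log2FC 0.52, SE 0.16, edgeR adjusted p = 0.2121). Pfkfb3, a glycolytic regulator also named after its value was seen, averaged 10.4 CPM in labelled knockdown and 30.1 CPM in wildtype (log2FC -1.54, SE 0.37, edgeR adjusted p = 0.1455). DESeq2 called 1 of the 26 higher and 4 lower, beside 1.65% and 2.07% of all its genes, and 9 (34.6%) had an unadjusted p under 0.05, beside 12.4%.

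Other vasoactive peptide systems held 13 tested genes of 16. At an unadjusted p under 0.05 were 3 (23.1%), beside 12.4% of all tested genes, and 0 of the 13 passed in edgeR, DESeq2 or limma. Their median log2FC was -0.00524, with 6 above 0. Ramp2, the adrenomedullin co-receptor, had -0.68 (SE 0.23, edgeR adjusted p = 0.275). Agt, angiotensinogen, had -0.60 (SE 0.22, edgeR adjusted p = 0.2998), and its groups did not overlap. In this list 2 of 13 (15.4%) were lower without overlap and 0 higher, beside 3.9% and 4.18% of all tested genes. Over the 9 pathway and endothelial lists together, 134 genes were tested. Of the 134, edgeR called 0 higher and 1 lower, beside 0.275% and 0.371% of all tested genes. With 1 library left out the number called was 0 (without labelled knockdown replicate 1, 3 or 4 or wildtype replicate 4) to 2 (without wildtype replicate 1). At an unadjusted p under 0.05 were 34 of the 134, beside 12.4% of all tested genes. DESeq2 called 5 of the 134 higher and 9 lower, beside 1.65% and 2.07% of all its genes. The log2FCs of the 134 ran from -1.54 to 1.36.

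**Figure D4:**
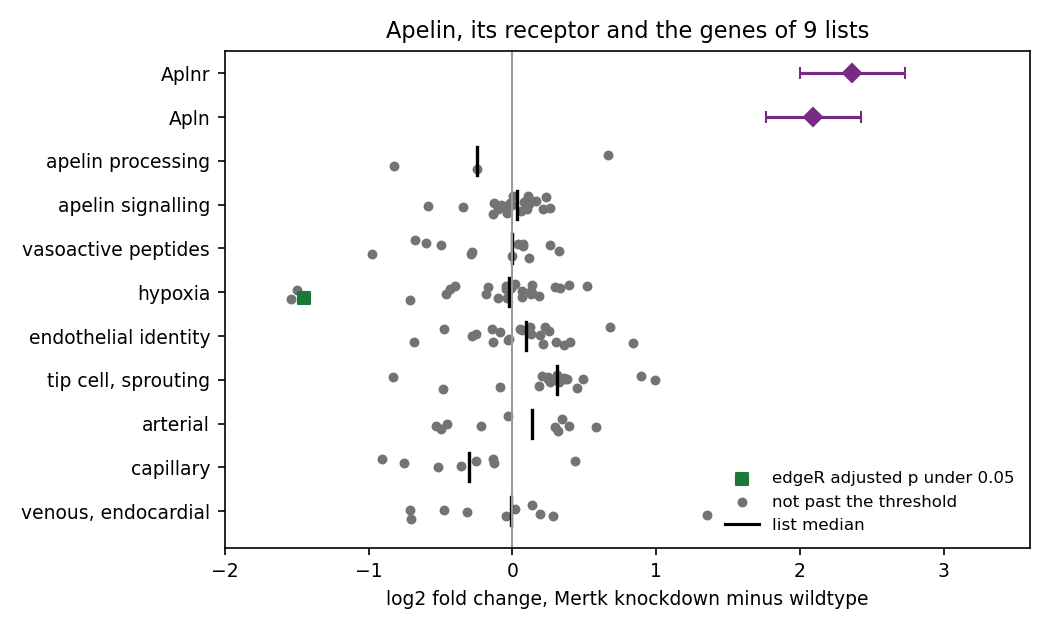
Log2 fold change (labelled Mertk knockdown minus wildtype) of Aplnr and Apln (diamonds with SE) and of the 134 tested genes of 9 lists (points, with a black bar at each list's median and a square for the gene past the edgeR threshold). The members lie at 2.365 (Aplnr) and 2.095 (Apln), while the list genes lie between -1.54 and 1.36 and 1 of them is past the threshold.

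Genes whose pattern was most like that of the pair were ranked among 12318 genes averaging 1 CPM or more, leaving out predicted and clone names. By pooled r the closest to Aplnr were Ets1 (0.977), Dkc1 (0.976), Plxnd1 (0.972), Tafa3 (0.972) and Gadd45a (0.972), each without overlap of the groups. Of these 5, Ets1, Plxnd1 and Gadd45a were among the 49 genes called higher, and because this r contains the group difference those calls add nothing to the likeness. Ets1, an ETS transcription factor active in endothelium, averaged 54.95 ± 7.81 CPM in labelled knockdown and 34.31 ± 2.89 CPM in wildtype. Plxnd1, the endothelial semaphorin receptor plexin-D1, had 119, 148.6, 172.8 and 157 CPM in labelled knockdown, against 69.72, 86.92, 70.21 and 85.64 CPM in wildtype. Gadd45a, a stress-inducible growth arrest gene, averaged 12.33 ± 3.16 CPM in labelled knockdown and 5.48 ± 1.39 CPM in wildtype (SD, n = 4 each). The call of Plxnd1 held when any single library was left out, that of Ets1 held in 3 of 8 such fits and that of Gadd45a in 0 of 8.

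Among the 5 closest to Apln by pooled r were Rgmb (0.983), Ap2m1-ps (0.971), Rap2c (0.97) and Reep5 (0.97). Rgmb is a co-receptor for bone morphogenetic proteins, Rap2c is a small GTPase and Reep5 shapes the endoplasmic reticulum. Their log2FCs were small, from 0.20 for Ap2m1-ps to 0.36 for Reep5, and 0 of these 4 passed in edgeR. The level of Ap2m1-ps, named as a pseudogene, may include reads of its parent gene. By deviations from group means the closest to Apln were Fut8 (0.999), Gnb5 (0.99), Apobec3 (0.982), Scrn1 (0.981) and Erh (0.98), and the closest to Aplnr were Xylt2 (0.981), Usf1 (0.981), Tcap (0.975), Exoc3l (0.962) and Eml3 (0.961). These genes are the extremes of 12318 ranked over 8 libraries. By deviations, 3.69% of all other tested genes had an r above 0.8 with Apln and 2.82% with Aplnr. Fut8, a fucosyltransferase with a log2FC of -0.02 (SE 0.14), followed Apln across the replicates of each group. Apobec3, an antiviral cytidine deaminase, and Tcap, a sarcomere protein, followed the replicate order of the members while lying lower in labelled knockdown, with log2FCs of -0.88 (SE 0.17, edgeR adjusted p = 0.05063) and -0.77 (SE 0.17, edgeR adjusted p = 0.09085). The lists for Apln and for Aplnr had no gene in common.

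No tested neighbour of either gene (0 of 6) passed the threshold in edgeR. Within 100 kb of Apln the table holds Ocrl, 59.3 kb away with a log2FC of -0.27 (SE 0.10, edgeR adjusted p = 0.3048), and Xpnpep2, 73.9 kb away, at 0.512 ± 0.763 CPM in labelled knockdown and 0.18 ± 0.0752 CPM in wildtype (edgeR adjusted p = 0.6575). The sign of its log2FC turned without labelled knockdown replicate 4. Of 7 genes within 100 kb of Aplnr 4 were tested. These were Tnks1bp1 (log2FC 0.18), Ssrp1 (-0.11), Lrrc55 (0.75) and P2rx3 (0.35), with edgeR adjusted p-values of 0.3884, 0.6679, 0.6395 and 0.8575. The other 3, 4930443O20Rik, Gm13713 and Gm13716, were at most 0.235 CPM in any library.

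Marker levels of some other cell types moved with the groups. The summed level of 7 macrophage genes was 102.9 to 121.4 CPM in labelled knockdown and 126 to 197 CPM in wildtype, and that of 7 cardiomyocyte genes was 41170 to 46060 CPM in labelled knockdown and 28280 to 39320 CPM in wildtype. Every gene of both lists was measured above 0 in every library. Neither sum overlapped between the groups, but 0 of the 7 genes of either list passed in edgeR. At an unadjusted p under 0.05 were 4 macrophage genes (57.1%) and 2 cardiomyocyte genes (28.6%), beside 12.4% of all tested genes. DESeq2 called 2 macrophage genes lower, beside 2.07% of all its genes, and 1 cardiomyocyte gene, Myh6, higher, beside 1.65%, while limma called 0. The cardiomyocyte sum was carried by the 2 genes that did not overlap, named after their values were seen: Myh6 averaged 18090 CPM in labelled knockdown and 10820 CPM in wildtype, and Actc1 averaged 7883 CPM in labelled knockdown and 5315 CPM in wildtype. The other 5 genes summed to 16590 to 17820 CPM in labelled knockdown and 13110 to 18150 CPM in wildtype, which overlap. The part of these levels in those of Apln and Aplnr was not tested. Pericyte and smooth muscle genes summed to 1058 to 1197 CPM in labelled knockdown and 880 to 1116 CPM in wildtype. Lymphatic genes summed to 121.2 to 137.3 CPM in labelled knockdown and 104.4 to 126.8 CPM in wildtype. Of the 7 lymphatic log2FCs, though, 2 were above 0 and the median was -0.324. Prox1, named after its value was seen, averaged 64.22 CPM in labelled knockdown and 38.15 CPM in wildtype. In this list 3 genes (42.9%) had an unadjusted p under 0.05, beside 12.4%. DESeq2 called Prox1 higher and Ccl21a and Mmrn1 lower, beside 1.65% and 2.07% of all its genes. Fibroblast genes overlapped widely, at 539.4 to 1001 CPM in labelled knockdown and 515 to 1961 CPM in wildtype.

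Hepatocyte transcripts stood high in 5 libraries, of which 1 was wildtype. Against wildtype replicate 1 alone, the wildtype library with such transcripts, the 4 labelled knockdown libraries had a log2FC of 2.96 (SE 0.37) for Apln and 2.50 (SE 0.79) for Aplnr, an alternative chosen after the data were seen, where the spread of wildtype, with 1 library left, is taken to equal that of labelled knockdown. With the hepatocyte level as a covariate the values were 3.04 (SE 0.41) for Apln and 2.54 (SE 0.66) for Aplnr. Wildtype replicate 1 was the lowest library for Apln, and Aplnr was not among the called genes in either of these fits. Atrial transcripts overlapped between the groups, and with their level as a covariate the values were 2.39 (SE 0.27) for Apln and 2.49 (SE 0.39) for Aplnr.

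**Figure D5:**
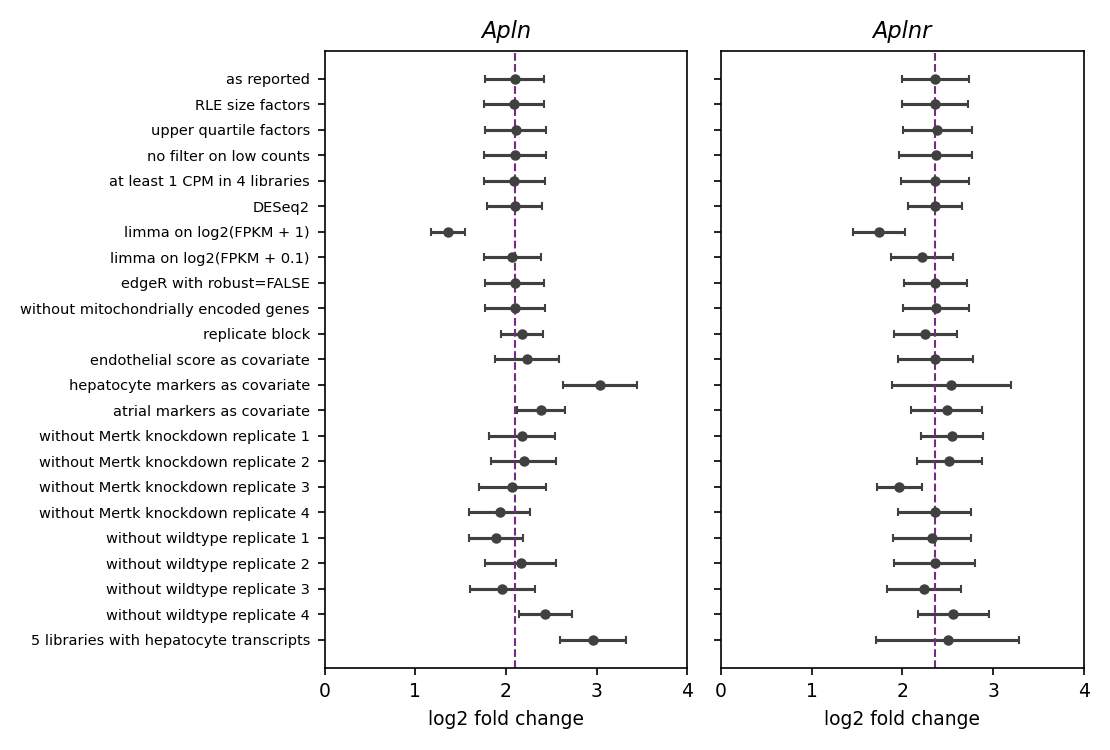
Log2 fold change (labelled Mertk knockdown minus wildtype) of Apln and Aplnr with SE, as reported and under 22 other settings, with a dashed line at the reported value. Apln lies between 1.36 and 3.04 and Aplnr between 1.75 and 2.56, all above 0.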

How the data were processed

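Poly(A) RNA of mouse heart was sequenced in 8 libraries as stranded paired ends, per the labels' protocols. Read counts and FPKM per gene are used as deposited, per the file headers; FPKM is the authors' own length and depth scaling. The submitters' processing notes name cutadapt 1.9, HISAT2 2.2.1, StringTie 2.1.6, DESeq2, edgeR and build mm10, with no role or order. Use of strand in counting is not given in the sources. Groups come from the sample titles. The deposited counts were fitted for all genes with edgeR 4.0.16 in R 4.3.3 (glmQLFit with robust = TRUE, glmQLFTest, two-sided), TMM factors and filterByExpr, which left 17787 of 30445 genes, with Benjamini-Hochberg adjusted p under 0.05 as the threshold. A standard error is the log2 fold change divided by the square root of F. CPM uses TMM-scaled library sizes, and correlations use log2 CPM with a prior count of 2. Where a symbol had more than 1 row, the row with the larger total count was used. Libraries of a group differed beyond sampling noise (chi-square over its degrees of freedom 37.89 to 198.7). The fit was tested on simulated counts. Alternatives were other size factors and filters, DESeq2 1.42.0, limma 3.58.1 on log2(FPKM + 1) and log2(FPKM + 0.1), a replicate block, covariates and leaving out each library. Levels and ratios were computed with pandas 2.3.3 and numpy 2.4.6 in Python 3.11.15.

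The members and all lists were chosen with earlier results of these data known. Named genes, 47 in all, were the members, Mertk, every tested gene of apelin processing, the called genes of each other list or else its 2 of smallest p, all genes within 100 kb of a member, and the 5 genes most like each member by either correlation. Of these, 3 are not reported here; they stay in all counts of called genes. Further genes were named after their values were seen. Promoter sequence is from RefSeq on GRCm38.p6. The gene models of the table were not compared with another annotation.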

Additional observations from a re-analysis of the deposited data

Results flagged for a closer look

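Of 134 groups of 4 libraries searched for a single library far from the other 3, 10 had one, and chance alone gives about 6.7 (1 in 20 groups). Neither Apln nor Aplnr had one in either group. Kdr stood at 223.7 CPM in labelled knockdown replicate 3, the library with the highest Aplnr, against 149.2 to 161.2 CPM in the other 3 libraries of that group. Agt stood at 4.447 CPM in wildtype replicate 1 (the other 3 at 3.093 to 3.177), and P2rx3 at 1.711 CPM in wildtype replicate 4 (the other 3 at 0.2776 to 0.5046).

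The other 7 were summed levels of marker lists. In the labelled knockdown group, venous and endocardial genes stood at 140.8 CPM in replicate 4 (the other 3 at 110.7 to 115.7), atrial genes at 1985 CPM in replicate 4 (184.2 to 473.2), and erythroid genes at 2094 CPM in replicate 2 (899 to 1050). In wildtype, hepatocyte genes stood at 216.6 CPM in replicate 1 (9.573 to 17.12), lung genes at 3.454 CPM in replicate 1 (0.2949 to 0.4224), adipocyte genes at 54.77 CPM in replicate 3 (0 to 3.313), and Xist at 2.444 CPM in replicate 4 (0.1561 to 0.3469). Such levels were not confined to wildtype: lung genes stood at 3.141 and 3.338 CPM in labelled knockdown replicates 2 and 3. Xist stood at 2.277, 0.4531, 1.959 and 2.568 CPM in labelled knockdown replicates 1 to 4. The part of these outlying libraries in the levels of Apln and Aplnr was not tested beyond leaving each out.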

How the results depend on the processing

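Apln and Aplnr were higher in labelled Mertk knockdown under all 22 alternatives, with log2 fold changes of 1.36 to 3.036 for Apln and 1.746 to 2.564 for Aplnr. Both lowest values came from limma on log2(FPKM + 1), where the pseudocount itself lowers the change of low genes. Apln reached 3.036 with the hepatocyte covariate and 2.963 in the 5 libraries with hepatocyte transcripts, an alternative chosen after seeing the data. Leaving out 1 library gave 1.895 to 2.431 for Apln and 1.967 to 2.564 for Aplnr. Their place among the called genes, which is what chose them and no test here, was less stable: Apln was among them under 15 of the 22 and Aplnr under 12, and with 1 library left out Apln was in 2 of 8 fits (without wildtype replicate 1 or 4) and Aplnr in 3 (without labelled knockdown replicate 1, 2 or 3). With the endothelial covariate neither was among them, and Aplnr was also not among them with the hepatocyte covariate, in the 5 libraries, with the replicate block or without a filter.

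The number of genes called, 115 in the fit reported, was 604 with DESeq2, 70 and 69 with limma on log2(FPKM + 1) and log2(FPKM + 0.1), 38 with the endothelial and 19 with the hepatocyte covariate, 42 in the 5 libraries, and 44 (without labelled knockdown replicate 3) to 265 (without wildtype replicate 1) with 1 library left out. In the pathway and endothelial lists, 1 gene was called in the fit reported, 14 with DESeq2, 0 with either limma fit, 2 with the endothelial and 0 with the hepatocyte covariate, and 0 to 2 with 1 library left out: 0 without labelled knockdown replicate 1, 3 or 4 or wildtype replicate 4, and 2 without wildtype replicate 1. The causes were not tested. Deviations of same-numbered libraries of the 2 groups had r of 0.135, -0.0612, -0.121 and 0.285 for numbers 1 to 4. Mean r with the other numbers was -0.0546, 0.00986, 0.0323 and -0.0704. With 1 pair of libraries per number, these mixed values cannot decide whether the numbers pair the libraries, and no label says so. The fit with a replicate block called 24 genes, 0 in the lists, and gave 2.18 for Apln and 2.251 for Aplnr. The lowest count of either member was 107, so depth limits the levels of the low neighbours more than those of the pair.

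For the other named genes, 851 of the values kept direction and side of the threshold, 19 newly passed it, 32 lost it and 20 changed sign, none of the last a called value. Fut8 became 0.007609 and 0.01663 with the limma fits, 0.04304, 0.3337 and 0.09674 with the endothelial, hepatocyte and atrial covariates, 0.312 in the 5 libraries and -0.1092 to 0.1063 with 1 library left out. Cytl1 became 0.3449 and 0.268 and Scrn1 0.4736 and 0.4292 with the hepatocyte covariate and in the 5 libraries. With 1 library left out, Xpnpep2 ranged from -0.4248 to 1.906, Erh from -0.06633 to 0.1959 and Eml3 from -0.08571 to 0.1963.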
